A study of Homo sapiens with 6 samples.

Results

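Long intergenic noncoding RNAs (lincRNAs) are transcripts that encode no known protein and are annotated between protein-coding genes. Of the 7629 genes that the deposited table classes as lincRNA, 102 were well expressed in at least 1 of 6 RNA sequencing libraries taken while human embryonic stem cells became cardiac organoids. A gene was chosen by its highest FPKM, which had to be at least 10, and H19, MEG3, MEG8, MEG9 and KCNQ1OT1 were left out by name, of which MEG9 alone was of this class and past the threshold. FPKM is the number of reads on a gene for each kilobase of its length, divided by a denominator for its library. These denominators were 0.826 (day 30) to 1.12 (day 6) times the read totals, so differences between days depend on this scaling. Because the 102 lincRNAs were selected on these levels, their FPKM by day is a description and carries no test. Just inside the threshold stood AL353052.1 (10.01 FPKM), AC015922.2 (10.21) and AL132655.2 (10.23). Just outside it were CASC9 (9.86), AC012574.1 (9.41) and AC074135.1 (9.32).

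All 6 libraries came from H9, an established human embryonic stem cell line, with 1 library for each of 6 days of cardiac organoid differentiation, which were day 0, then days 2, 3, 4 and 6, then day 30. Per the labels, each time point is a harvest of 10 organoids, and every library carries the cell type embryonic stem cell. No agent of the protocol, nor whether the 10 organoids were pooled, is named in the labels used here. With 1 library for each day no difference has a replicate check, no p-value is given, and intervals cover counting error only. Folds below are ratios of FPKM, with exact 95% counting intervals in parentheses, and "at least" marks a bound against a floor of 3 reads where a library had 0. Total reads recovered from the FPKM values lay between 13500887 and 15526924, and the 102 lincRNAs took 0.285% of them at day 30 to 0.498% at day 0. For a gene of 1 kilobase, a count of 0 allows up to 0.174 FPKM at day 6 and 0.243 FPKM at day 30 by the same floor. The 6 stem cell markers, among them POU5F1 and NANOG, summed to 1523 FPKM at day 0 and 3.53 at day 30, and 4 primitive streak markers were highest at day 2 with 857 FPKM. Summed FPKM at day 30 was 201 for 7 cardiac markers, 5038 for 5 smooth muscle and fibroblast markers and 445 for 5 endoderm markers. Markers of other cell types thus stood beside those of heart muscle. Single genes weighed heavily in these sums, with COL3A1 at 4173 FPKM, AFP at 299 and APOA1 at 125. Of the other endoderm markers, ALB had 14.55 FPKM at day 30. SOX17 and FOXA2, highest on day 4, had 2.385 and 4.105. The 3 blood and immune markers summed to at most 0.0647 FPKM on any day, with HBE1 at 0 throughout. In such bulk samples, fewer cells of a type and less RNA per cell cannot be told apart, and the part of cell type shares in the lincRNA levels was not tested.

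Some lincRNAs act in the nucleus, where MALAT1 sits in speckles and NEAT1 builds paraspeckles, and others bind proteins or microRNAs in the cytoplasm. Many start close to a coding gene on the opposite strand, and for some it is the act of transcription, more than the RNA, that is thought to matter. Human pluripotent cells are known for lincRNAs that begin in endogenous retroviruses of the HERVH family, and for others that p53 represses.

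The name of the class was checked against the gene positions of the table. Of the 102 lincRNAs, 51 overlapped the body of another gene and 25 overlapped an exon of one, on either strand, so the label intergenic did not hold for all of them. The labels do not say whether read counting used strand. For these 25, reads from the shared exon bases therefore cannot be told apart between the lincRNA and its partner. RefSeq held 57 of the 102. It classed 54 as long noncoding, EBLN3P, which derives from a bornavirus-like nucleoprotein gene, as a transcribed pseudogene, and 2 as protein-coding. Those 2 were ERVH48-1, which encodes suppressyn, a retroviral envelope-derived inhibitor of cell fusion, and AC007405.3, whose transcript RefSeq assigns to the coding gene ERICH2. Single-exon genes made up 15.7% of the 102 and 15.9% of all lincRNAs of the table. The median length was 1178 bases, with a range from 205 to 22767, against 759 bases for all lincRNAs and 4780 for protein-coding genes of at least 10 FPKM.

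Levels of the 102 lincRNAs peaked most often at the start of the course. The highest FPKM fell on day 0 for 38 of them, on day 2 for 9, on day 3 for 7, on day 4 for 21, on day 6 for 15 and on day 30 for 12. As shares, day 0 had 37.3% of the lincRNAs against 25.2% of 6780 protein-coding genes of at least 10 FPKM, and day 30 had 11.8% against 37.0%. Day 4 had 20.6% of the lincRNAs and 7.85% of the coding genes. Among other lincRNAs with a highest FPKM of at least 1 and under 10, day 0 had 17.97%, day 4 had 22.1% and day 30 had 20.2%. The summed FPKM of the 102 was 2644 at day 0, 1453 at day 2, 1325 at day 3, 1485 at day 4, 1087 at day 6 and 716 at day 30. Most of the day 0 sum, 2186 FPKM, came from the 38 lincRNAs that were highest that day, and those 38 summed to 44.9 FPKM at day 30.

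**Figure D1:**
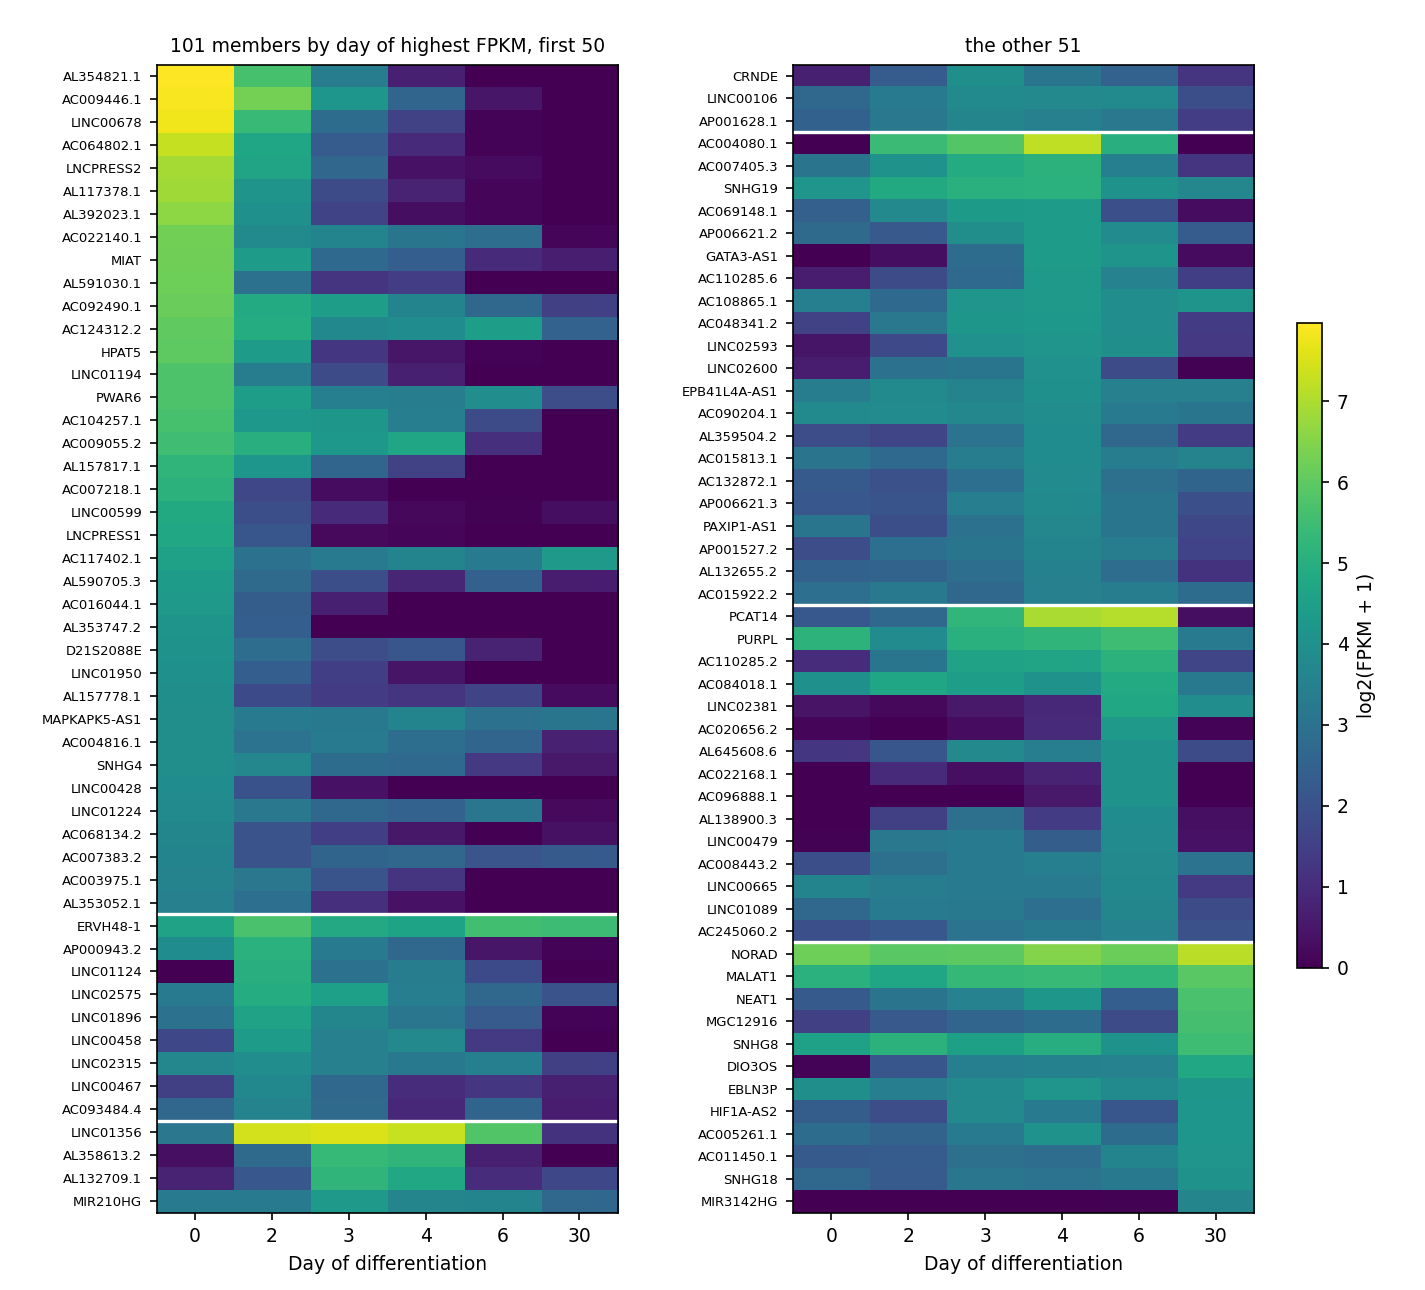
Colour gives log2(FPKM + 1) of all but 1 of the 102 lincRNAs (rows) in the 6 libraries (columns), 1 library per day, with white lines between the groups by day of highest FPKM and rows sorted by highest FPKM within a group. The genes highest on day 0 fill most of the left panel and are dark by day 30, where 22 of them had 0 reads.

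**Figure D2:**
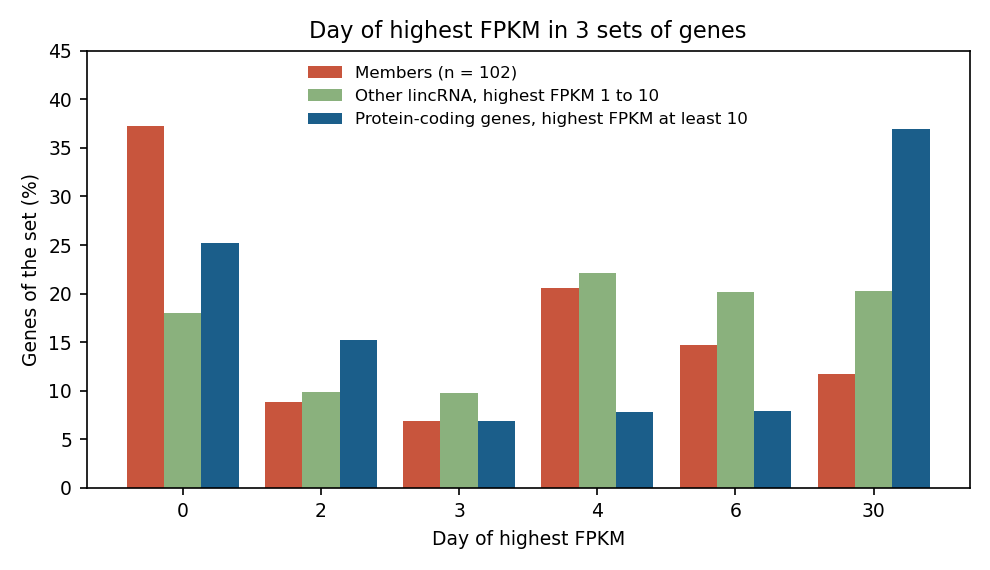
Bars give the percent of genes in each set whose highest FPKM fell on each day, for the 102 lincRNAs, other lincRNAs with a highest FPKM of at least 1 and under 10, and protein-coding genes of at least 10 FPKM. Day 0 held 37.3% of the 102 and day 30 held 37.0% of the coding genes.

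Few were expressed at this level throughout. Only 5 of the 102 had at least 10 FPKM on every day, namely ERVH48-1, SNHG19, NORAD, MALAT1 and SNHG8, while 41 reached 10 FPKM on 1 day alone. At least 1 FPKM on every day was seen for 47. At day 0, 17 of the 102 lay under 1 FPKM, and at day 30, 48 did. Under 1 FPKM at both ends of the course were 10, of which 5 were highest on day 6, 3 on day 4 and 1 each on days 2 and 3. At least 80% of the summed FPKM fell on 1 day for 15 lincRNAs, 11 of them highest on day 0, 3 on day 6 and 1 on day 30. Past 100 FPKM on their highest day were 10 lincRNAs, and 6 of those were highest on day 0.

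The lincRNAs highest on day 0 included the most abundant of the 102. AL354821.1 (ENSG00000274090, chromosome 13, 55535697 to 55583524, minus strand), a multi-exon gene whose nearest coding gene lies 1557394 bases away, had 251 FPKM at day 0, 49.6 at day 2, 9.22 at day 3, 0.626 at day 4, 0 at day 6 and 0 at day 30. It was high on day 0, lower on each later day and had no read on days 6 and 30. Its day 0 level was 5.05-fold (4.64 to 5.51) that of day 2 and at least 835-fold that of day 30. LINC00678 (ENSG00000254934, chromosome 11, 27617626 to 27634627, minus strand), a transcript described in human pluripotent cells, had 222 FPKM at day 0, 40.2 at day 2, 6.104 at day 3, 1.901 at day 4, 0.0496 at day 6 and 0 at day 30. AC009446.1 (chromosome 8, 71675300 to 71702786, plus strand) had 236 FPKM at day 0, 77.7 at day 2, 17.2 at day 3, 5.06 at day 4, 0.385 at day 6 and 0 at day 30, and AC064802.1 (chromosome 8, 114282067 to 114295839, plus strand) had 154 FPKM at day 0, 25.4 at day 2, 4.04 at day 3, 0.956 at day 4, 0.0485 at day 6 and 0 at day 30. All 3 declined from each day to the next and had no read at day 30.

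LNCPRESS1 and LNCPRESS2 are lincRNAs of embryonic stem cells that p53 represses, and LNCPRESS1 is known to hold the deacetylase SIRT6 away from its targets. LNCPRESS2 had 118 FPKM at day 0, 24.2 at day 2, 5.21 at day 3, 0.308 at day 4, 0.188 at day 6 and 0 at day 30. LNCPRESS1 had 25.9 FPKM at day 0, 3.37 at day 2, 0.161 at day 3, 0.07299 at day 4, 0 at day 6 and 0 at day 30, so that 87.8% of its summed FPKM lay on day 0. Both were highest on day 0 and lower on day 2, and neither had a read at day 30. HPAT5, a pluripotency-associated transcript that binds let-7 microRNAs, had 63.2 FPKM at day 0, 20.4 at day 2, 1.42 at day 3, 0.385 at day 4, 0.0587 at day 6 and 0 at day 30. LINC01194 had 52.8 FPKM at day 0, 9.13 at day 2, 2.65 at day 3, 0.643 at day 4, 0 at day 6 and 0 at day 30. Each of these 4 was at least 92.4-fold higher at day 0 than at day 30, where they had 0 reads. MIAT, a nuclear RNA first linked to myocardial infarction, was also highest in the stem cells, with 75.6 FPKM at day 0, 20.1 at day 2, 5.55 at day 3, 4.18 at day 4, 0.993 at day 6 and 0.602 at day 30. It remained detectable, and its day 0 level was 126-fold (102 to 157) that of day 30.

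The decline of this group was steep in the median. Over the 38 lincRNAs highest on day 0, the median FPKM was 30.9 at day 0, 8.30 at day 2, 4.51 at day 3, 1.505 at day 4, 0.148 at day 6 and 0 at day 30. For 37 of the 38 the interval of the fold over the next highest day lay above 1 and for 29 that fold was at least 2. Not all were lost by day 30. AC117402.1 had 22.5 FPKM at day 0, 7.11 at day 2, 8.64 at day 3, 11.2 at day 4, 8.62 at day 6 and 18.9 at day 30, with a minimum on day 2 and a second rise at the end. Neighbouring PWAR6 and AC124312.2, in the imprinted Prader-Willi region, both overlap SNHG14, and PWAR6 had 52.3 FPKM at day 0, 20.97 at day 2, 9.93 at day 3, 9.13 at day 4, 14.1 at day 6 and 2.72 at day 30. AC124312.2 had 64.5 FPKM at day 0, 29.8 at day 2, 12.1 at day 3, 13.6 at day 4, 21.4 at day 6 and 4.74 at day 30, and both were higher on day 6 than on days 3 and 4. The greatest share on 1 day in this group was that of AC007218.1, with 93.2% of its summed FPKM on day 0 and 34.1 FPKM at day 0, 2.26 at day 2, 0.211 at day 3, 0 at day 4, 0 at day 6 and 0 at day 30. AL591030.1 had 72.8 FPKM at day 0, 6.93 at day 2, 1.33 at day 3, 1.72 at day 4, 0 at day 6 and 0 at day 30, and no read was found on days 6 and 30.

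Of the 102 lincRNAs, 14 were linked by stretches of identical sequence. A pair was linked where transcripts of the 2 genes, read 5′ to 3′ from GENCODE 29, shared at least 5 stretches of 40 identical bases, a rule set after the values were seen. The 14 lie on 9 chromosomes in the table and 11 of them were highest on day 0, namely AC003975.1, AC007218.1, AC009055.2, AC009446.1, AC022140.1, AC064802.1, AC104257.1, AL117378.1, AL392023.1, AL591030.1 and LINC00678. AP000943.2 and LINC00458 were highest on day 2 and LINC01356 on day 3. Of the other 88 lincRNAs, 27 (30.7%) were highest on day 0. Outside the 102, 16 further lincRNAs shared stretches with the 14. Of these 16, 6 reached 1 FPKM and 4 of the 6 were highest on day 0, against 17.6% of the 919 remaining lincRNAs that reached 1 FPKM. One of the 4 carries the name ERVH-1, of the HERVH retrovirus family, and shared 6 stretches. No repeat annotation was used here, so the stretches are not assigned to a repeat. Shared stretches took from 0.805% (AC007218.1) to 22.8% (AL392023.1) of the 40-base windows of a gene's transcripts, and reads from them could be placed in either gene or lost.

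By median, the 14 had 61.05 FPKM at day 0, 19.1 at day 2, 7.43 at day 3, 3.48 at day 4, 0.247 at day 6 and 0 at day 30. The other 27 lincRNAs highest on day 0 had medians of 18.8, 7.11, 4.99, 1.295, 0.704 and 0.184 FPKM on the same days. The medians of the 14 were thus above those of the 27 through day 4 and below them on days 6 and 30. The sets are not alike, because the 14 include AP000943.2, LINC00458 and LINC01356, which were highest on day 2 or 3. No medians were taken without these genes, so the difference on days 2 to 4 may rest on them. AL117378.1 had 113 FPKM at day 0, 16.6 at day 2, 2.54 at day 3, 0.692 at day 4, 0.0959 at day 6 and 0 at day 30, and AL392023.1 had 98.4 FPKM at day 0, 14.97 at day 2, 2.101 at day 3, 0.238 at day 4, 0.109 at day 6 and 0 at day 30. AC022140.1, with 77.1 FPKM at day 0, 12.9 at day 2, 11 at day 3, 7.62 at day 4, 6.22 at day 6 and 0.0701 at day 30, declined more slowly and was still read on day 30. AC009055.2 had a second maximum on day 4, with 45.2 FPKM at day 0, 31.7 at day 2, 18.2 at day 3, 24.7 at day 4, 1.11 at day 6 and 0 at day 30.

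**Figure D3:**
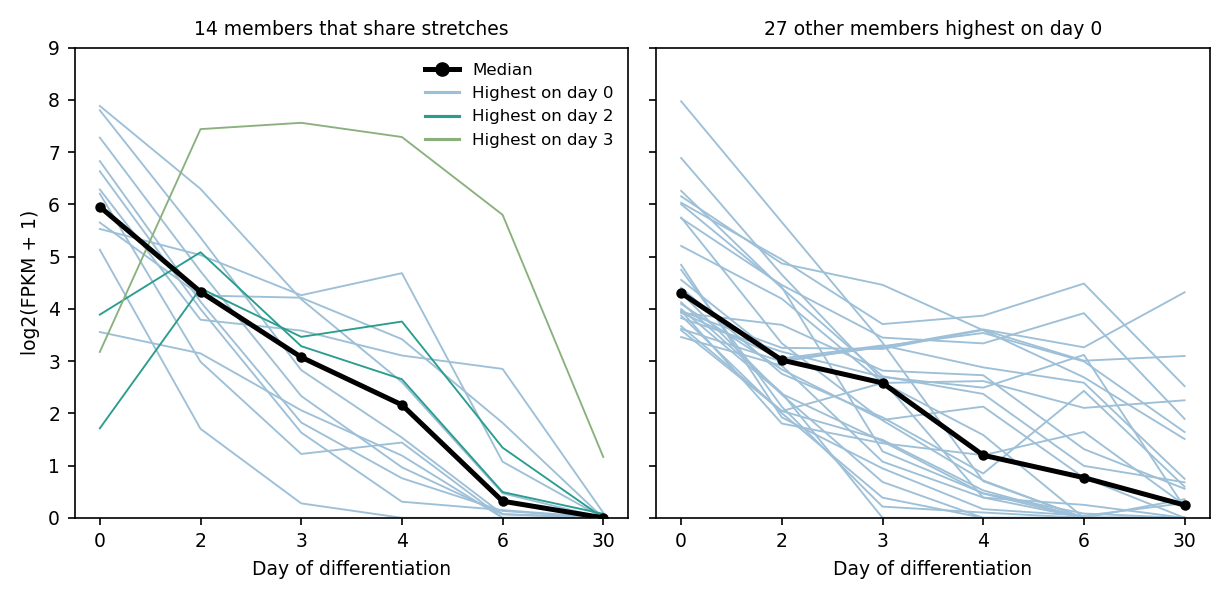
Lines give log2(FPKM + 1) by day of each of the 14 lincRNAs linked by shared stretches (left, coloured by day of highest FPKM) and of the 27 other lincRNAs highest on day 0 (right), with the median in black; days are evenly spaced on the axis and each has 1 library. The median of the 14 falls from 61.05 FPKM at day 0 to 0 at day 30, and LINC01356 stays high from day 2 to day 6.

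On day 2, when the primitive streak markers were at their maximum, 9 lincRNAs were highest. ERVH48-1 was the most abundant of them and had 23.2 FPKM at day 0, 50.4 at day 2, 26.9 at day 3, 23.6 at day 4, 46.5 at day 6 and 42.95 at day 30, so it stayed above 20 FPKM on all days and had a second maximum on day 6. AP000943.2 had 13.8 FPKM at day 0, 32.9 at day 2, 8.76 at day 3, 5.29 at day 4, 0.408 at day 6 and 0.0544 at day 30, and LINC00458, a transcript described in pluripotent cells, had 2.28 FPKM at day 0, 20.02 at day 2, 10.04 at day 3, 12.5 at day 4, 1.54 at day 6 and 0 at day 30. Both were low again by day 6. LINC01124 had 0 FPKM at day 0, 31.4 at day 2, 7.08 at day 3, 9.15 at day 4, 2.46 at day 6 and 0 at day 30, and 62.7% of its summed FPKM fell on day 2, the greatest share in this group. It had no read in the stem cells and was at least 322-fold higher at day 2. LINC02575 had 8.53 FPKM at day 0, 29.9 at day 2, 21.5 at day 3, 9.71 at day 4, 5.33 at day 6 and 3.11 at day 30, and LINC01896 had 6.99 FPKM at day 0, 22.98 at day 2, 11.7 at day 3, 7.82 at day 4, 3.94 at day 6 and 0.0467 at day 30. LINC00467 had 1.87 FPKM at day 0, 12.2 at day 2, 5.46 at day 3, 1.02 at day 4, 1.39 at day 6 and 0.619 at day 30, 6.53-fold (5.39 to 7.96) higher at day 2 than at day 0. For LINC02315, with 14.2 FPKM at day 2 and 12.0 at day 0, the interval of the fold between the 2 days, 0.930 to 1.52, included 1.

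Among the 7 lincRNAs highest on day 3, the day of most MESP1, an early mesoderm factor, LINC01356 stood far above the rest. LINC01356 (ENSG00000215866, chromosome 1, 112820170 to 112850643, minus strand) had 8.04 FPKM at day 0, 173 at day 2, 188 at day 3, 156 at day 4, 54.8 at day 6 and 1.24 at day 30. It was 23.4-fold (20.4 to 26.96) higher at day 3 than at day 0, and days 2, 3 and 4 formed a plateau on which day 3 exceeded day 2 by 1.09-fold (1.05 to 1.13). AL358613.2 had 0.243 FPKM at day 0, 5.696 at day 2, 39.2 at day 3, 36.2 at day 4, 0.612 at day 6 and 0 at day 30, high on days 3 and 4 alone. AL132709.1 lies in the imprinted 14q32 region, and its nearest coding gene, RTL1, is 170147 bases away. AL132709.1 had 0.751 FPKM at day 0, 3.48 at day 2, 36.4 at day 3, 26.1 at day 4, 1.04 at day 6 and 2.33 at day 30, likewise high on days 3 and 4. CRNDE, a lincRNA raised in several tumours, had 0.636 FPKM at day 0, 3.97 at day 2, 14.8 at day 3, 7.59 at day 4, 4.68 at day 6 and 1.36 at day 30, and MIR210HG, the host of a hypoxia-induced microRNA, had 8.57 FPKM at day 0, 8.94 at day 2, 18.6 at day 3, 11.4 at day 4, 11.2 at day 6 and 5.301 at day 30. For 3 of the 7, AL358613.2, LINC00106 and AP001628.1, the interval of the fold over the next day included 1.

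Day 4 was the highest day of 21 lincRNAs, which as a group were next highest on days 3 and 6. The exception in size was AC004080.1 (ENSG00000253308, chromosome 7, 27239243 to 27241228, minus strand), which had 0 FPKM at day 0, 42.1 at day 2, 56.1 at day 3, 147 at day 4, 31.6 at day 6 and 0 at day 30. It had no read at either end of the course and was at least 538-fold higher at day 4 than at day 0, with 53.1% of its summed FPKM on day 4. AC007405.3 had 7.47 FPKM at day 0, 15.6 at day 2, 29.3 at day 3, 33.8 at day 4, 9.87 at day 6 and 1.34 at day 30, and SNHG19, a host of small nucleolar RNAs, had 16.7 FPKM at day 0, 27.4 at day 2, 32.6 at day 3, 33.1 at day 4, 16.2 at day 6 and 11.8 at day 30. The first was high on days 3 and 4, and the second stayed between 11.8 and 33.1 FPKM. AC069148.1 had 4.48 FPKM at day 0, 12.4 at day 2, 19.1 at day 3, 20.4 at day 4, 2.86 at day 6 and 0.211 at day 30, and AP006621.2 had 5.82 FPKM at day 0, 3.72 at day 2, 14.2 at day 3, 20.3 at day 4, 13.2 at day 6 and 3.99 at day 30. GATA3-AS1 had 0 FPKM at day 0, 0.236 at day 2, 6.05 at day 3, 20.2 at day 4, 16.6 at day 6 and 0.171 at day 30, so that it was near 0 in the stem cells, high on days 4 and 6 and near 0 again at day 30. AC110285.6 had 0.561 FPKM at day 0, 2.53 at day 2, 5.68 at day 3, 19.1 at day 4, 10.7 at day 6 and 1.81 at day 30, with 47.2% of the sum on day 4. Over the 21, the median FPKM was 4.48 at day 0, 5.67 at day 2, 9.61 at day 3, 15.3 at day 4, 9.502 at day 6 and 2.05 at day 30, and 15 had at least 1 FPKM on every day. For 14 of the 21 the interval of the fold over the next day lay above 1.

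On day 6, the last of the early time points, 15 lincRNAs were highest, and they split into broad and narrow patterns. PCAT14, named for prostate cancer, had 3.63 FPKM at day 0, 5.42 at day 2, 37.4 at day 3, 123 at day 4, 134 at day 6 and 0.231 at day 30, high on days 4 and 6 and 36.9-fold (32.6 to 41.9) higher at day 6 than at day 0. PURPL, a p53 target that lowers p53, had 34.3 FPKM at day 0, 13.5 at day 2, 32.5 at day 3, 36.1 at day 4, 43.9 at day 6 and 8.74 at day 30. AC110285.2 had 1.01 FPKM at day 0, 7.62 at day 2, 23.1 at day 3, 24.3 at day 4, 33.8 at day 6 and 2.17 at day 30, and AC084018.1 had 15.2 FPKM at day 0, 24.8 at day 2, 21.3 at day 3, 15.6 at day 4, 28.1 at day 6 and 8.35 at day 30. PURPL and AC084018.1 were read at over 8 FPKM on all days. The narrow pattern was shown by AC096888.1, which had 0 FPKM at day 0, 0 at day 2, 0 at day 3, 0.448 at day 4, 16.1 at day 6 and 0 at day 30, with 97.3% of its sum on day 6 from 157 reads. AC020656.2 had 0.104 FPKM at day 0, 0 at day 2, 0.197 at day 3, 0.954 at day 4, 18.6 at day 6 and 0.0457 at day 30, and AC022168.1 had 0 FPKM at day 0, 0.968 at day 2, 0.262 at day 3, 0.6804 at day 4, 16.1 at day 6 and 0 at day 30. These 3 were near 0 on all days other than day 6. LINC02381 had 0.328 FPKM at day 0, 0.134 at day 2, 0.453 at day 3, 0.877 at day 4, 26.1 at day 6 and 14.2 at day 30, under 1 FPKM through day 4 and high on days 6 and 30.

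The 12 lincRNAs highest on day 30 included the widely expressed NORAD, MALAT1 and NEAT1. NORAD, a cytoplasmic RNA that binds Pumilio proteins, had 73.1 FPKM at day 0, 60.7 at day 2, 61.2 at day 3, 89.2 at day 4, 72.3 at day 6 and 141 at day 30, and MALAT1 had 32.8 FPKM at day 0, 24.9 at day 2, 38.8 at day 3, 41.5 at day 4, 36.3 at day 6 and 60.04 at day 30. Both were abundant on all days and 1.92-fold (1.86 to 1.99) and 1.83-fold (1.76 to 1.902) higher at day 30 than at day 0. NEAT1 (ENSG00000245532, chromosome 11, 65422774 to 65445540, plus strand) had 3.75 FPKM at day 0, 7.38 at day 2, 10.7 at day 3, 17.7 at day 4, 4.27 at day 6 and 50.8 at day 30, a rise to day 4, a drop at day 6 and a level at day 30 that was 11.9-fold (11.3 to 12.5) that of day 6. MGC12916 had 1.88 FPKM at day 0, 3.68 at day 2, 5.11 at day 3, 6.13 at day 4, 2.52 at day 6 and 48.8 at day 30, with 71.6% of its sum at day 30 and 19.3-fold (15.2 to 24.9) higher there than at day 6. By read totals these folds of NEAT1 and MGC12916 were 8.76 and 14.2, and with TPM scaling 9.62 and 15.6. NEAT1 has a gene length of 22767 bases in the table, and its isoforms were not told apart. SNHG8, a host of a small nucleolar RNA, had 22.4 FPKM at day 0, 34.2 at day 2, 22.1 at day 3, 30.5 at day 4, 15.98 at day 6 and 44.02 at day 30. DIO3OS had 0.0614 FPKM at day 0, 3.38 at day 2, 9.94 at day 3, 10.3 at day 4, 10.5 at day 6 and 26.6 at day 30, and MIR3142HG had 0 FPKM at day 0, 0 at day 2, 0 at day 3, 0 at day 4, 0.0243 at day 6 and 11.4 at day 30. MIR3142HG had 334 reads at day 30 and 1 read in the other 5 libraries together. For EBLN3P, with 17.7 FPKM at day 30 and 16.7 at day 4, the interval of the fold, 0.985 to 1.14, included 1, and day 4 was the higher by read totals and with TPM scaling.

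The genes of 4 lincRNAs contained mature microRNAs listed in the RefSeq table used here, 9 in all, and their sequences are shown because the host transcript is the only measure of these loci here. The libraries were made from poly-T purified RNA, and mature microRNAs were not measured. Capitals mark the seed, bases 2 to 8, by which a microRNA recognises its targets. No 2 of the 9 share a seed. LINC00599, highest on day 0 with 27.7 FPKM, carries the RefSeq symbol MIR124-1HG, a host gene by name. None of the 9 lies in it, so the 4 hosts found here may not be all. MIR210HG, highest on day 3 with 18.6 FPKM, contains miR-210.
hsa-miR-210-3p: cUGUGCGUgugacagcggcuga
hsa-miR-210-5p: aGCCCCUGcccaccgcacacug
DIO3OS, highest on day 30 with 26.6 FPKM, contains miR-1247.
hsa-miR-1247-3p: cCCCGGGAacgucgagacuggagc
hsa-miR-1247-5p: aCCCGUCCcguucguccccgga
AL132655.2, highest on day 4 with 10.23 FPKM, contains miR-296.
hsa-miR-296-3p: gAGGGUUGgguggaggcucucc
hsa-miR-296-5p: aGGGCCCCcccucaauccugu
MIR3142HG, with 11.4 FPKM on day 30 alone, contains miR-3142 and miR-146a, the last a regulator of innate immune signalling.
hsa-miR-3142: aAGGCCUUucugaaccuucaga
hsa-miR-146a-5p: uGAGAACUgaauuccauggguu
hsa-miR-146a-3p: cCUCUGAAauucaguucuucag

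Between days, more of the 102 lincRNAs passed the rule for a lower than for a higher level in each comparison of FPKM as deposited, which the scaling named below turned in 1 of the 6. A gene was tested where its FPKM was at least 1 in either library, and it was called where log2(FPKM + 1) differed by at least 1. A gene with at least 10 FPKM on some day passes this rule more readily than a weakly expressed one, and the same libraries chose the lincRNAs, so the shares of all genes are set beside theirs and nothing is read from the difference. At day 2 against day 0, 23 of 96 tested lincRNAs were called higher and 32 lower, beside 8.78% and 7.75% of all genes. At day 3 against day 2 it was 18 higher and 24 lower of 97, beside 7.13% and 4.98%. With the sum of FPKM made equal between libraries (TPM scaling) this split turned to 24 higher and 21 lower.

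At day 4 against day 3, 4 of 91 were called higher and 14 lower, beside 4.23% and 3.59% of all genes. The 4 were AC004080.1, GATA3-AS1, AC110285.6 and PCAT14. At day 6 against day 4, 8 of 85 were higher and 25 lower, beside 5.51% and 6.71%. At day 30 against day 6, 8 of 77 were higher and 47 lower, beside 21% and 15.3%. At day 30 against day 0, 10 of 92 were higher and 51 lower, beside 25.9% and 19.1%. For each of these calls the counting interval of the fold excluded 1. The median log2 difference of the tested lincRNAs was -0.27, -0.04, -0.05, -0.50 and -1.40 in the 5 consecutive steps and -1.54 from day 0 to day 30, and that of all tested genes was -0.03, -0.02, -0.004, -0.01, 0.08 and 0.13. With FPKM scaled by read totals instead, the split at day 30 against day 6 was 4 higher and 50 lower among the lincRNAs and 2546 higher and 4268 lower among all genes, where the deposited scaling gave 3776 and 2761. With TPM scaling it was 2960 and 3916 for all genes in that comparison, 1666 and 569 at day 3 against day 2 (1152 and 804 as deposited) and 1286 and 953 at day 6 against day 4 (922 and 1123 as deposited). The comparisons share libraries, so they are not independent of each other.

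**Figure D4:**
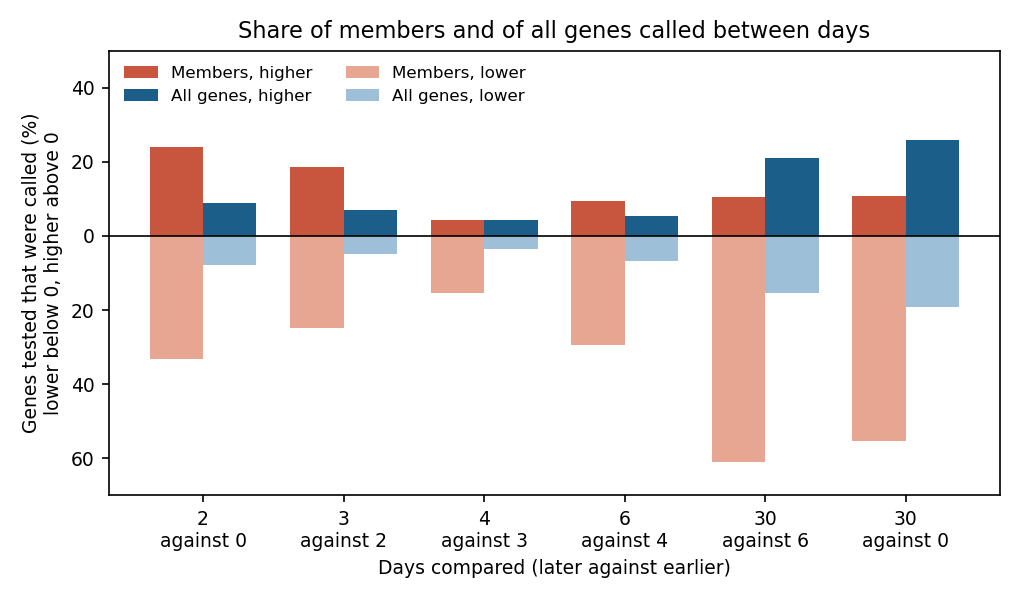
Bars give the percent of tested genes called higher (above 0) and lower (below 0) in each comparison of 2 libraries, for the lincRNAs (red) and for all genes (blue), at a difference of at least 1 in log2(FPKM + 1). In the 2 comparisons of day 30, 61.0% and 55.4% of the tested lincRNAs were called lower, beside 15.3% and 19.1% of all genes.

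The nearest protein-coding gene was found for each lincRNA by the distance between gene bodies. It overlapped the lincRNA in 14 cases, lay within 10 kb in 38 more, from 10 to 100 kb away in 29 and over 100 kb away in 21. The median distance was 9898 bases. Of the 6 groups by highest day, the lincRNAs highest on day 0 most often stood alone, and 14 of these 38 had no coding gene within 100 kb and 11 had one within 10 kb. Within 10 kb of a coding gene lay 6 of the 9 lincRNAs highest on day 2, 5 of 7 on day 3, 15 of 21 on day 4, 7 of 15 on day 6 and 8 of 12 on day 30. For 11 lincRNAs the table lists the neighbour under a family of transcription factors. Coding neighbours were not used to choose the lincRNAs, so their levels are a separate measurement, apart from any reads of overlapping genes.

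A coding neighbour of at least 1 FPKM was present for 81 of the 102, and in 32 of these 81 pairs (39.5%) both genes had their highest FPKM on the same day. Among protein-coding genes of at least 10 FPKM and their own nearest coding neighbours, 31% of 5390 pairs did. Within 10 kb it was 23 of 50 lincRNA pairs (46%) and 30% of 3799 coding pairs, and beyond 10 kb 9 of 31 lincRNA pairs (29.03%). The pairs within 10 kb include overlapping genes. With overlapping pairs left out, at any distance, it was 25 of 69 lincRNA pairs (36.2%) and 31.4% of 3862 coding pairs. A pair on opposite strands was counted as divergent where its 5′ ends were no farther apart than its 3′ ends, overlapping genes included. By arrangement, the same day was shared by 12 of 26 divergent pairs within 10 kb and by 4 of 8 convergent pairs. It was shared by 7 of 16 pairs on the same strand. By day, it was shared by 13 of 26 pairs with a lincRNA highest on day 0, 3 of 8 on day 2, 3 of 7 on day 3, 5 of 18 on day 4, 1 of 11 on day 6 and 7 of 11 on day 30. Of all protein-coding genes of at least 10 FPKM, 25.2% were highest on day 0, 15.2% on day 2 and 6.84% on day 3. On day 4 it was 7.85%, on day 6 7.95% and on day 30 37.0%, so nothing is read from the differences between days. With 1 library per day these counts describe the 6 libraries, and the difference between lincRNA pairs and coding pairs was not tested.

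Some of the lincRNAs lay beside each other. Within 10 kb of another of the 102 were 10, in 5 pairs picked out after the values were seen. Overlapping pairs were AC124312.2 with PWAR6, AP006621.2 with AP006621.3 and AC084018.1 with LINC01089, and each of these pairs shared its highest day. AP006621.3 had 3.51 FPKM at day 0, 3.23 at day 2, 9.61 at day 3, 13.1 at day 4, 7.48 at day 6 and 2.83 at day 30, close in pattern to AP006621.2. HPAT5 and AL353747.2, 4379 bases apart, were both highest on day 0, and AL353747.2 had 16.4 FPKM at day 0, 4.24 at day 2, 0 at day 3, 0 at day 4, 0 at day 6 and 0 at day 30. LINC02593 and AL645608.6, 888 bases apart beside SAMD11, were highest on days 4 and 6. Farther apart, AC007218.1 and AC022168.1 both had GRIN2A, a glutamate receptor gene, as nearest coding gene, at 76561 and 32030 bases, and GRIN2A stayed under 1 FPKM on all days. The first was read on days 0 to 3 alone and the second was at 16.1 FPKM on day 6 and under 1 FPKM on the other days.

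In 31 pairs the genes lay within 10 kb and the neighbour reached 10 FPKM. Both genes were called in the same direction in at least 1 of the 5 consecutive steps in 21 of these pairs, in at least 2 steps in 15 and in at least 3 steps in 9. They were called in opposite directions in a step in 1 pair. No such count was made for coding pairs. Genes that reach 10 FPKM pass the rule more readily, so nothing is read from these counts. The same day of highest FPKM was shared by 16 of the 31, and by 10 of the 19 that were divergent.

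LINC01124 and SP5, a transcription factor induced by WNT signalling, start 784 bases apart on opposite strands. SP5 had 2.21 FPKM at day 0, 340.4 at day 2, 184 at day 3, 171 at day 4, 21.3 at day 6 and 0.707 at day 30, and both genes were highest on day 2 and under 1 FPKM at day 30. LINC01896 starts 1201 bases from SALL3, a zinc finger factor that had 7.28 FPKM at day 0, 28.6 at day 2, 10.98 at day 3, 4.67 at day 4, 2.37 at day 6 and 0.295 at day 30. The pair had similar levels on days 0, 2 and 3 and shared its highest day. AL358613.2 ends 9 bases before CYP26A1, the enzyme that breaks down retinoic acid, on the same strand. CYP26A1 had 3.15 FPKM at day 0, 43.7 at day 2, 107 at day 3, 68.9 at day 4, 2.49 at day 6 and 0 at day 30, and both genes were high on days 3 and 4 and low on day 6. Whether the pair shares transcripts was not tested. CRNDE starts 1673 bases from IRX5, a homeobox factor with 0.0968 FPKM at day 0, 4.24 at day 2, 19.1 at day 3, 5.47 at day 4, 3.31 at day 6 and 1.96 at day 30, and both were highest on day 3.

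On day 4, LINC02600 shared its highest day with ADRA2C, an adrenergic receptor 2958 bases away that had 3.95 FPKM at day 0, 56.6 at day 2, 46.8 at day 3, 80.4 at day 4, 15.6 at day 6 and 1.08 at day 30. LINC02593 shared it with SAMD11, 2912 bases away, which had 0.149 FPKM at day 0, 6.23 at day 2, 30.5 at day 3, 41.1 at day 4, 27.6 at day 6 and 8.45 at day 30, and AP001527.2 with YAP1, the Hippo pathway co-activator, which starts 4 bases away and had 34.3 FPKM at day 0, 40.9 at day 2, 55.8 at day 3, 62.9 at day 4, 60.9 at day 6 and 44.8 at day 30. YAP1 changed less than AP001527.2 in proportion. AC007405.3 shared day 4 with ERICH2, 5638 bases downstream, but RefSeq holds both as ERICH2, so they may not be separate genes. AL157817.1 lies inside C13orf42 on the other strand. C13orf42 had 44.1 FPKM at day 0, 17.5 at day 2, 7.58 at day 3, 2.33 at day 4, 0.464 at day 6 and 0.0671 at day 30, and both were lower on each later day through day 6.

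At day 30, DIO3OS and DIO3, the imprinted gene of the enzyme that inactivates thyroid hormone, were the pair with the greatest neighbour level. DIO3 had 1.801 FPKM at day 0, 19.6 at day 2, 39.5 at day 3, 31.5 at day 4, 24.3 at day 6 and 1106 at day 30, so from day 6 to day 30 it changed far more than DIO3OS, which moved from 10.5 to 26.6 FPKM. MGC12916 lies in the body of HS3ST3B1, a heparan sulfate sulfotransferase gene, on the same strand and outside its annotated exons. HS3ST3B1 had 0.705 FPKM at day 0, 4.53 at day 2, 4.68 at day 3, 5.61 at day 4, 3.51 at day 6 and 42.9 at day 30, and the values of the 2 genes were close on each day from day 2 on. HIF1A-AS2 overlaps HIF1A, the hypoxia-inducible factor, which had 62.2 FPKM at day 0, 39.3 at day 2, 34.3 at day 3, 29.4 at day 4, 37.3 at day 6 and 152 at day 30. SNHG18 starts 125 bases from SEMA5A, a guidance molecule with 1.9 FPKM at day 0, 3.97 at day 2, 3.63 at day 3, 2.21 at day 4, 16.8 at day 6 and 19.6 at day 30, and both were highest on day 30 with day 6 next. AC011450.1 overlaps CD37, which had 0.827 FPKM at day 0, 3.702 at day 2, 4.07 at day 3, 4.65 at day 4, 7.58 at day 6 and 11.4 at day 30.

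**Figure D5:**
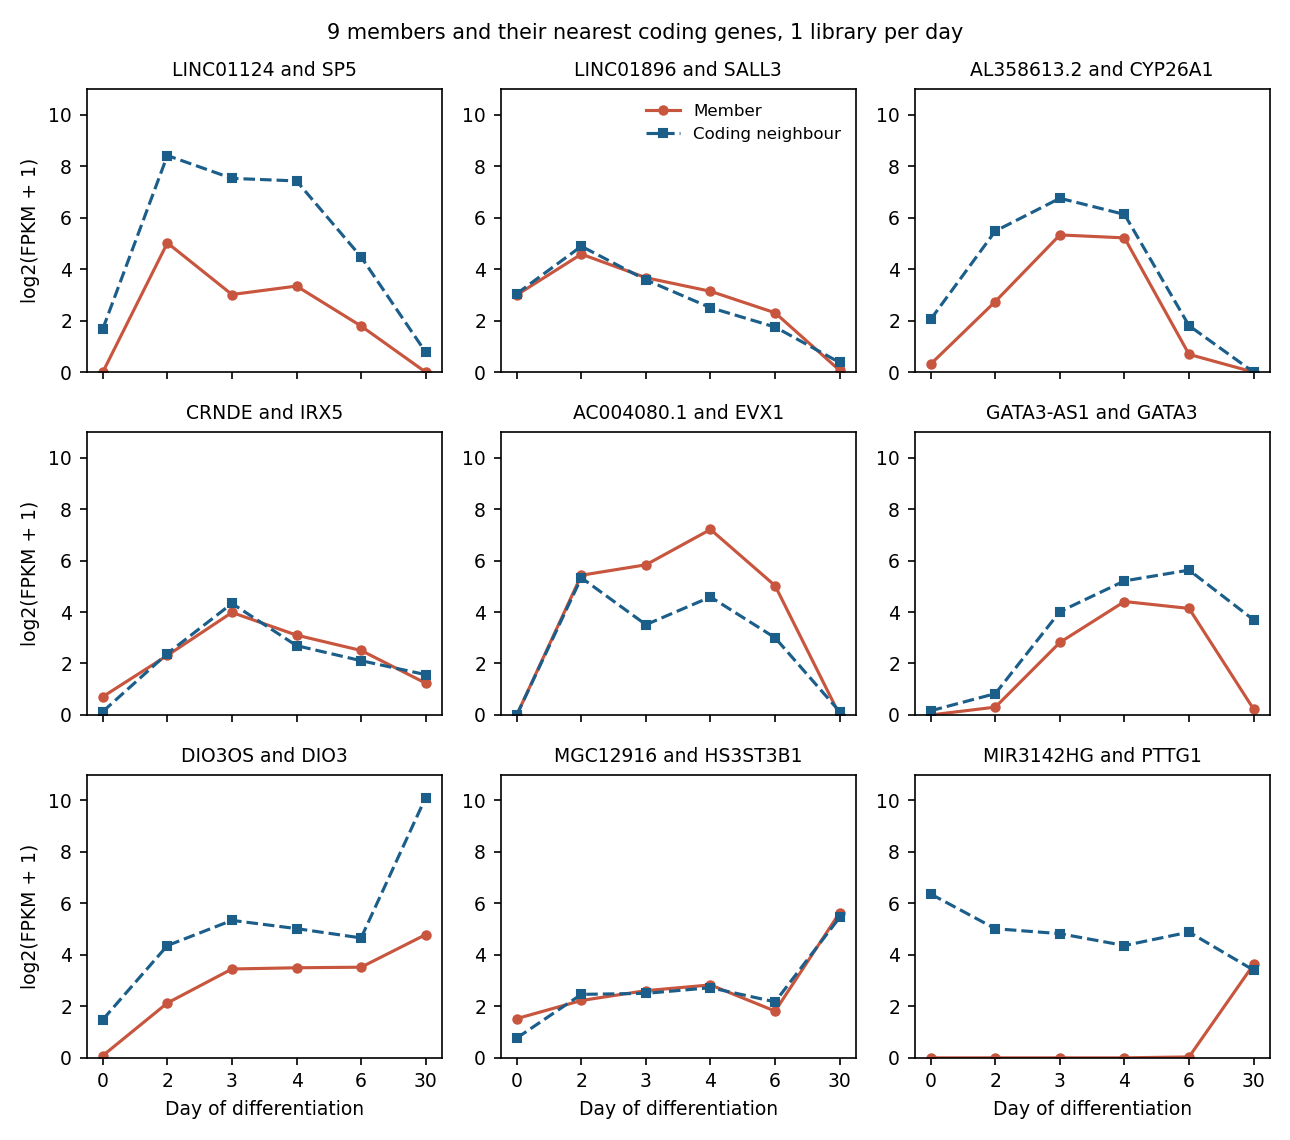
Panels give log2(FPKM + 1) by day for 9 lincRNAs (solid, circles) and their nearest coding genes (dashed, squares), chosen among the 31 close pairs to show shared and unshared patterns; days are evenly spaced and each has 1 library. SP5 and LINC01124 peak together on day 2, while MIR3142HG appears at day 30 as PTTG1 reaches its lowest level of 9.61 FPKM.

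Other close pairs were highest on different days. AC004080.1 starts 1472 bases from EVX1, a homeobox factor of the primitive streak, which had 0 FPKM at day 0, 39.3 at day 2, 10.4 at day 3, 22.99 at day 4, 7.004 at day 6 and 0.0966 at day 30. On day 2 the 2 genes were at similar levels, and by day 4 the lincRNA had 147 FPKM and EVX1 had 23.0. GATA3-AS1 overlaps GATA3, whose factor acts in mesoderm and trophoblast among other tissues. GATA3 had 0.1202 FPKM at day 0, 0.777 at day 2, 15.2 at day 3, 36 at day 4, 48.5 at day 6 and 11.97 at day 30, highest on day 6 and still read at day 30, when GATA3-AS1 was at 0.171 FPKM. AC069148.1, highest on day 4, starts 1050 bases from the WNT receptor gene FZD7, which had 65.8 FPKM at day 0, 134 at day 2, 301 at day 3, 287 at day 4, 125 at day 6 and 23.7 at day 30 and was highest on day 3. AC110285.2, highest on day 6, starts 5219 bases from BAHCC1, which had 0.797 FPKM at day 0, 6.19 at day 2, 17.4 at day 3, 25.6 at day 4, 21.02 at day 6 and 3.99 at day 30. These 4 pairs, whose highest days differed, were among the 9 of the 31 close pairs called in the same direction in 3 or more steps. No such count was made for coding pairs, and nothing is read from it.

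A neighbour could also vary less than the lincRNA. SNHG19 starts 340 bases from TRAF7, which had 23.2 FPKM at day 0, 34.9 at day 2, 23.03 at day 3, 23.4 at day 4, 22.9 at day 6 and 26.8 at day 30. MIR3142HG was the pair with opposite calls. Its neighbour PTTG1, the separase inhibitor securin, had 81.3 FPKM at day 0, 31.4 at day 2, 27.3 at day 3, 19.6 at day 4, 28.6 at day 6 and 9.61 at day 30, and from day 6 to day 30 PTTG1 was called lower as MIR3142HG was called higher. The mitotic genes MKI67 and TOP2A summed to 94.4 FPKM at day 6 and 26.0 at day 30, and their part in this was not tested.

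Of the 102 lincRNAs, 34 had a promoter in the RefSeq table (build GRCh38.p14), taken as the 300 bases from 250 before to 50 after a start that lies within 1000 bases of a GENCODE start. Their median GC content was 60.2%, against 58.3% for 27305 promoters of the table and 62.7% for 15843 promoters of coding genes. By day of highest FPKM it was 54.5% for 8 promoters of day 0, 74% for 3 of day 2, 63.8% for 2 of day 3, 66.7% for 7 of day 4, 57.3% for 6 of day 6 and 67.7% for 8 of day 30. The median number of CpG in these sets was 10 on day 0, 38 on day 2, 25 on day 3, 23 on day 4, 12.5 on day 6 and 32.5 on day 30, with no steady order over the days. The 7 motifs below were searched on both strands. The NF-Y motif CCAAT was found in 11 of the 34 (32.4%) and in 35.7% of all promoters. The TATA box TATAAA was found in 2 (5.88%) of them and in 11.95% of all promoters. An E-box, spelled CACGTG, was found in 4 (11.8%) and in 7.435% of all. For the octamer of POU factors, ATGCAAAT, it was 3 of the 34 (8.82%) and 1.802% of all promoters. These 3 were AC016044.1, highest on day 0, MIR210HG on day 3 and MIR3142HG on day 30. The GATA motif AGATAA was found in 2 (5.88%) and in 10.5% of all, and the MEF2 motif in 1 (2.94%) and in 2.83%. The T-box motif AGGTGTGA was found in 0 of the 34 and in 0.9815% of all promoters. A match is a run of letters and not a shown binding site.

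Promoters are printed for 3 lincRNAs that were the most abundant with a promoter in the table on their highest day and held a motif, which capitals mark. They are AP000943.2 of day 2 (chr11:94637793-94638092, plus strand, CCAAT), PURPL of day 6 (chr5:27472042-27472341, plus strand, AGATAA) and NORAD of day 30 (chr20:36050911-36051210, minus strand, CACGTG). Their GC contents were 46.7%, 52.0% and 63.0%.
AP000943.2: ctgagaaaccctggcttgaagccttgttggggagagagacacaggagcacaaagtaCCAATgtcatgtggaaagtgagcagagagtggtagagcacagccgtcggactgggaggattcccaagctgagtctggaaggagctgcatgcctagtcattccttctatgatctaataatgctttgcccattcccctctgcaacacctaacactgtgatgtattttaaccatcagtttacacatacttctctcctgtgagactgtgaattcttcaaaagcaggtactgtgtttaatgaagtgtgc
PURPL: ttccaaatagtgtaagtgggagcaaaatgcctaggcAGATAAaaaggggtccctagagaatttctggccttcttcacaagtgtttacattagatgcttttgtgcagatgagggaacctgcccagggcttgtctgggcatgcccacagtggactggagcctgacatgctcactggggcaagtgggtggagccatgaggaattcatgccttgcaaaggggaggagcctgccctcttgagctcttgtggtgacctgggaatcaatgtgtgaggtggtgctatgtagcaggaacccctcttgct
NORAD: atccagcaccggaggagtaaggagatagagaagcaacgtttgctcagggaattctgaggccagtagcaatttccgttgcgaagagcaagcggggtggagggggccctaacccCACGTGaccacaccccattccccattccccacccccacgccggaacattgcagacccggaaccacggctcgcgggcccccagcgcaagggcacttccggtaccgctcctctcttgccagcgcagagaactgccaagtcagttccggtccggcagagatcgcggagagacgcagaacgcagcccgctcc

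The 4 lists of known long noncoding RNAs were looked up, with earlier results of these data in view. Of 14 names linked to stem cells or HERVH, 6 were among the 102, namely LINC00458, LNCPRESS1, LNCPRESS2, LINC00678, LINC01194 and LINC01356. ESRG, at 591.5 FPKM on day 0, and TUNAR, at 20.25 FPKM on day 2, have other classes in the table and were not members. LINC-ROR, a regulator of reprogramming, reached 0.367 FPKM. Of 15 names on a list headed nuclear and X-linked, 4 were members, MALAT1, NEAT1, MIAT and NORAD. The heading does not describe NORAD, which is cytoplasmic and lies on chromosome 20. Of 28 hosts of small RNAs, 2 were members, SNHG8 and MIR210HG, and most others, such as GAS5 at 104 FPKM on day 4, are classed otherwise. Of 21 names linked to mesoderm, endoderm or heart, only LINC01124 was a member. Of the others, LINC01405 reached 9.02 FPKM on day 4, LINC00881 reached 3.76 and CARMN, a lincRNA of the smooth muscle and cardiac lineages, reached 2.49 on day 30, and FENDRR, which lies beside FOXF1, reached 0.631. The antisense genes GATA6-AS1, at 72.8 FPKM on day 6, and HAND2-AS1, at 13.25 on day 30, passed 10 FPKM but belong to another class.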

How the data were processed

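Poly-T purified RNA of H9 cells was sequenced, per the labels' protocols, as 1 library for each of 6 days. The authors deposited 1 table of FPKM values for 58735 genes, with gene class and position. CASAVA, HISAT2 and featureCounts 1.5.0-p3 appear in the submitters' processing notes, while settings, strand use and genome build are not named. Gene positions in the deposited table equal those of GENCODE 29 (GRCh38).

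FPKM multiplied by length came out as whole reads, within 0.01 read, for every value, which gave read counts for exact 95% Poisson and binomial intervals. PCR copies are not independent molecules, so intervals and the floor of 3 reads cover counting error only. The FPKM denominators were 0.826 (day 30) to 1.12 (day 6) times the read totals. Read-total scaling moved the median log2 value of all genes by -0.28 at day 30 and 0.13 at day 6, and TPM scaling by -0.15 at day 0, 0.14 at day 3 and 0.20 at day 6.

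Differences are on the log2(FPKM + 1) scale, with a minimum of 1 FPKM in either library, and understate the change of low genes. The script was tested on simulated data. Named genes are, within each day of highest FPKM, the 5 with the highest FPKM and the 3 with the greatest share on that day, members of 4 lists, and pairs within 10 kb with a neighbour of at least 10 FPKM. Others were chosen after their values were seen, and 1 lincRNA and the letters of the shared stretches are not reported here. The members and lists were chosen with earlier results of these data known. Promoters and microRNAs came from RefSeq (GRCh38.p14) and transcripts from GENCODE 29. Alternatives changed the threshold, scaling, pseudocount, minimum, neighbour rule and overlapping genes, and the rule on identical stretches was chosen after seeing the data. Python 3.11.15, numpy 2.4.6, pandas 2.3.3, scipy 1.17.1 and matplotlib 3.10.9 were used.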

Additional observations from a re-analysis of the deposited data

How the results depend on the processing

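No paired analysis was possible because each day had 1 library. A threshold of 5 FPKM gave 214 lincRNAs and one of 20 gave 49. Leaving out lincRNAs that overlap another gene left 51, of which 19 were highest on day 0, 5 on day 2, 4 on day 3, 11 on day 4, 9 on day 6 and 3 on day 30, with fewer calls because fewer genes were tested. Those calls were 15 higher and 17 lower at day 2 against day 0, 10 and 11 at day 3 against day 2, 3 higher and 6 lower at day 4 against day 3, 3 higher and 12 lower at day 6 against day 4, 2 and 27 at day 30 against day 6, and 2 and 28 at day 30 against day 0. Of the 7 lincRNAs highest on day 3, 4 exceeded the next day beyond the counting interval. A minimum of 5 FPKM gave 9 lower at day 4 against day 3, and read-total scaling gave 4 higher at day 30 against day 6. With neighbours of at least 10 FPKM, 19 of 43 pairs (44.2%) shared their highest day, beside 33.0% of 2858 coding pairs. By distance between 5′ ends it was 36.1% beside 31.2%, and with no minimum for the neighbour 36.1% beside 30.2%. Over all settings tried the share ran from 36.1% to 44.7% for lincRNA pairs and from 26.5% to 33.0% for coding pairs. For the stretches, with alternatives chosen after seeing the data, 60 bases linked 7 lincRNAs, all 7 highest on day 0, while 30 bases linked 17, of which 12 were, and a single stretch of 40 linked 14, of which 11 were.

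In all, 109 values of this kind stayed within 1.5 times their counts. The split of higher against lower calls among the lincRNAs turned only at day 3 against day 2 with TPM scaling, over the scalings tried. Among all genes it turned at day 6 against day 4 and day 30 against day 6 as given above, at day 4 against day 3 with TPM scaling (614 higher, 761 lower) and at day 30 against day 0 with read totals (3696 and 4016). Over all genes, calls at a pseudocount of 0.1 and at a minimum of 5 FPKM were 4222 and 1319 at day 2 against day 0 (2648 as reported), 3439 and 939 at day 3 against day 2 (1956), 2361 and 442 at day 4 against day 3 (1281), and 3380 and 914 at day 6 against day 4 (2045). The minimum of 5 gave 3678 at day 30 against day 6 (6537) and 4845 at day 30 against day 0 (8041), and asking also for an interval that excludes 1 gave 769 at day 4 against day 3. Of 34 folds of lincRNAs with reads on both days that were recomputed by read totals and with TPM scaling, 33 kept their direction, with 1.28 for PURPL at day 6 over day 0 becoming 1.46 and 1.66. The exception was EBLN3P at day 30 over day 4, at 1.06 as deposited, 0.822 by read totals and 0.984 with TPM scaling, and read totals left 10 lincRNAs highest on day 30. With 1 library for each day, no value here measures the spread between cultures.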
